A study of Homo sapiens with 26 samples.

Results

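FIBP siRNA 7 was compared with FIBP siRNA 6, a pair of siRNAs aimed at the same mRNA, in 786-O cells. These 4 libraries, 2 for each siRNA, were all of the FIBP libraries among the 26 libraries of the series, and they were chosen by their labels. The values of 3 groups are described. Cells given FIBP siRNA 7 and cells given FIBP siRNA 6 were set against each other, and cells given a non-targeting negative control siRNA (2 libraries) were shown beside them. The line, from a clear cell carcinoma of the kidney, has no working VHL, and the transcription factor HIF-2 is therefore active in all 3 groups. Per the labels, DharmaFECT 1 carried the siRNAs into the cells, which were replated at 24 h and collected at 48 h, and poly(A) RNA was read from both ends over 42 bases. The label of siRNA 6 replicate 2 misspells the target as FIPB and was read as FIBP. The labels leave unsaid if the paired libraries of each siRNA were transfected apart, so the spread between libraries behind the p-values below may be technical. That spread was pooled over the groups of all 10 libraries in the table and drawn toward that of other genes. A small p-value is therefore not a measure of how closely the 2 libraries of a group agree for that gene. Gene reads were 8966609 and 12110054 with siRNA 7, 12920437 and 10947489 with siRNA 6 and 11717744 and 13191916 in controls.

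FIBP is named for binding the fibroblast growth factor FGF1 inside cells, and the series places it among proteins of nuclear speckles, the nuclear bodies rich in splicing and mRNA export factors. An siRNA is a short duplex whose guide strand, held by an argonaute protein, pairs along its whole length with the mRNA it was designed for and leads to its cleavage. The few bases near the 5′ end of the guide, called the seed, can also pair with short matches in the 3′ untranslated regions (UTRs) of other mRNAs and lower them, as a microRNA does. For this reason studies of this kind use more than 1 siRNA for a target: changes shared by both are read differently from changes given by 1 of them.

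The sequences of the 2 siRNAs are not given in the sources used here. The 3′ UTRs were therefore scanned for 7-base words, on the mRNA strand, whose genes were lowest against controls after a correction for 3′ UTR length. The word that ranked lowest with siRNA 7 was GCTAACA, which stands in the longest 3′ UTR of 960 of 10940 genes with a UTR in GENCODE release 29 (8.78%), and the second was CTAACAA, which overlaps it. With siRNA 6 the lowest word was ATGACTG, held by 1445 genes (13.2%), and the second was TGACTGA, which overlaps that. These 4 are called low words here. Joined, each pair gives 8 bases that occur once in the annotated FIBP mRNA (ENST00000357519.8, 1248 bases). Whether the seed of a human microRNA matches these words is not shown here. The windows below show where they stand in FIBP and in the 3′ UTRs of 5 genes that results below turn on, 5′ to 3′ on the mRNA strand, with the joined low words in capitals. The coordinates are those of GRCh38, which is not the hg19 build named in the submitters' processing notes.
FIBP coding sequence, siRNA 7 words: tcgtcttctttGCTAACAAccgctttgaga
PRDX3 3′ UTR, siRNA 7 words: ttttcttttaaGCTAACAAagatcataatt
LIPA 3′ UTR, siRNA 7 words: gtaataaggatGCTAACAAttaattttatc
PIMREG 3′ UTR, siRNA 7 words: cctgggccactGCTAACAAgcacctaacaa
FIBP coding sequence and stop codon, siRNA 6 words: gcgcctgtatcATGACTGAggtgcctccca
ITGB1 3′ UTR, siRNA 6 words: gcctgttagacATGACTGAtgacatatctg
GM2A 3′ UTR, siRNA 6 words: aagagacttaaATGACTGAtaagaaccgtg
In FIBP these windows lie on the minus strand at chr11:65885620-65885649, in coding sequence, and at chr11:65883963-65883992, where the word ends in the stop codon. The 3′ UTR windows lie at chr10:119168036-119168065 (PRDX3, minus strand), chr10:89214251-89214280 (LIPA, minus strand), chr17:6450459-6450488 (PIMREG, plus strand), chr10:32901065-32901094 (ITGB1, minus strand) and chr5:151268093-151268122 (GM2A, plus strand). A match to a word is a description of the sequence, not a measured site of pairing.

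FIBP itself was lowered by both siRNAs, and somewhat less by siRNA 7. In normalized signal, the authors' gene counts divided by a size factor per library, FIBP stood at 103 and 81.2 with siRNA 7, 51.6 and 66.7 with siRNA 6 and 539 and 541 in controls. Both siRNA 7 libraries lay above both siRNA 6 libraries, and all 4 lay far below the controls. The level left was 17.1% of control with siRNA 7 and 11% with siRNA 6. The log2 change of siRNA 7 against siRNA 6 was 0.63 (SE 0.11, adjusted p = 1.6e-05), that of siRNA 7 against controls -2.55 (SE 0.11, adjusted p = 1.4e-22), and that of siRNA 6 against controls -3.18 (SE 0.11, adjusted p = 6.8e-26). All adjusted p-values in the text come from limma, fitted over the 10 libraries of the table and adjusted by Benjamini-Hochberg over 11768 genes. CTSW, which overlaps FIBP in RefSeq, stood between 12.3 and 19.3 in all 6 libraries.

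The 2 siRNAs differed in the expression of many genes, mostly by little. Of 11768 genes tested, 2110 were called higher with siRNA 7 than with siRNA 6 (17.9%) and 2087 lower (17.7%), at an adjusted p below 0.05. Of these, 97 were over 2-fold higher and 162 over 2-fold lower, and the median absolute log2 change of the called genes was 0.318. Between the 2 siRNAs against TMEM259, whose libraries stand in the same table, 32.1% of genes were called, against 35.7% for the FIBP pair. The TMEM259 libraries are in no group compared here, but they entered the same fit. The 2 shares therefore rest on the same estimates of the spread and are not independent. In the TMEM259 pair 63 genes were over 2-fold higher and 18 over 2-fold lower with its siRNA 5 than with its siRNA 6. Set against the same controls, siRNA 7 called 1954 genes higher and 2055 lower (16.6% and 17.5% of those tested), and siRNA 6 called 1269 higher and 1391 lower (22.6% together, against 34.1% for siRNA 7). The siRNA that left more FIBP mRNA was the one with more genes called against controls. The call count of siRNA 6 was 1669 without siRNA 6 replicate 1 and 1730 without control replicate 1. Among genes tested, DESeq2 called 2621 between the siRNAs, 2519 for siRNA 7 and 1541 for siRNA 6. The distance between libraries, as the root mean square of their log2 differences, was 0.395 to 0.406 between siRNA 7 and siRNA 6, 0.379 to 0.386 between siRNA 7 and controls and 0.287 to 0.315 between siRNA 6 and controls. Within a group it was 0.265 for siRNA 7, 0.230 for siRNA 6 and 0.210 for controls.

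The control mean was used to describe which siRNA stood farther from the controls. Its place was written on a scale on which siRNA 6 is 0 and siRNA 7 is 1, as a description with no test, since the comparisons share libraries. Among genes higher with siRNA 7, the control mean lay near siRNA 6 for 516, so that siRNA 7 stood farther from the controls, near siRNA 7 for 425, and between the siRNAs for 726. For 299 both siRNAs stood on 1 side of the controls with siRNA 7 farther, and for 144 with siRNA 6 farther. Among genes lower with siRNA 7, the control mean lay near siRNA 6 for 765, near siRNA 7 for 272 and between for 643, and both siRNAs were on 1 side for 295 and 112. Of the 162 genes over 2-fold lower, 86 had the control mean near siRNA 6 and 10 near siRNA 7, and of the 97 over 2-fold higher, 33 and 18. A control mean near 1 siRNA does not show that this siRNA left the gene unmoved: MEGF6, ATP6AP1, MOV10 and POLA1 lay near siRNA 6 on this scale and were also called between siRNA 6 and controls. In both directions together, 256 genes had both siRNAs on 1 side with siRNA 6 farther, and these were 137 without siRNA 6 replicate 1, 158 without siRNA 7 replicate 1 and 165 without siRNA 7 replicate 2. The 594 with siRNA 7 farther were 393 without siRNA 6 replicate 1, 358 without siRNA 6 replicate 2 and 388 without siRNA 7 replicate 2. With DESeq2 the 2 classes held 121 and 324 genes.

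**Figure D1:**
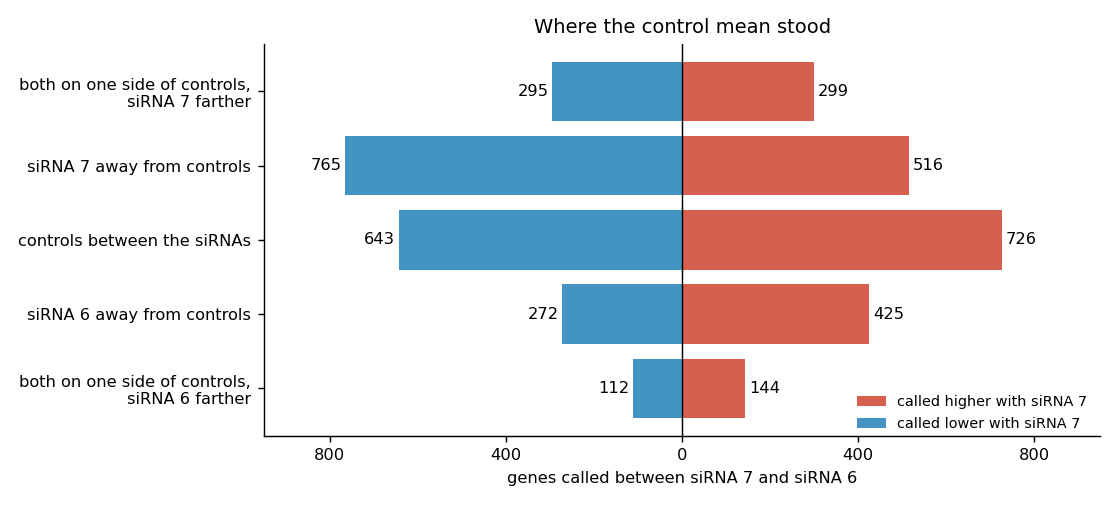
Genes called between siRNA 7 and siRNA 6, counted by where the control mean stood. Bars to the right count genes called higher with siRNA 7 and bars to the left genes called lower. The longest is the bar of 765 genes lower with siRNA 7 for which the control mean lay nearer siRNA 6 on the relative scale.

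Genes lower with an siRNA than with the other and the controls held its low words more often than all genes did. A low word of siRNA 7 stood in 15.1% of all 3′ UTRs. It stood in 31.7% of those of genes lower with siRNA 7 where the control mean lay near siRNA 6, and in 34 of 74 (45.9%) when such genes were over 2-fold lower. A low word of siRNA 6 stood in 20.9% of all 3′ UTRs and in 42.1% of those of genes higher with siRNA 7 where the control mean lay near siRNA 7, and over 2-fold in 11 of 16 (68.8%). Genes with both siRNA 7 words joined and no siRNA 6 word (117 genes) had a median log2 change of siRNA 7 against siRNA 6 of -0.272, and 51.3% of them were called lower. Genes with both siRNA 6 words joined and no siRNA 7 word (298) had a median of 0.138, and 40.9% were called higher. For 7615 genes with no low word the median was 0.00753, with 17.4% called higher and 16.3% lower. Since the words were chosen on these data, these shares describe the libraries and carry no test, and the part of a word in the change of any single gene was not tested.

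**Figure D2:**
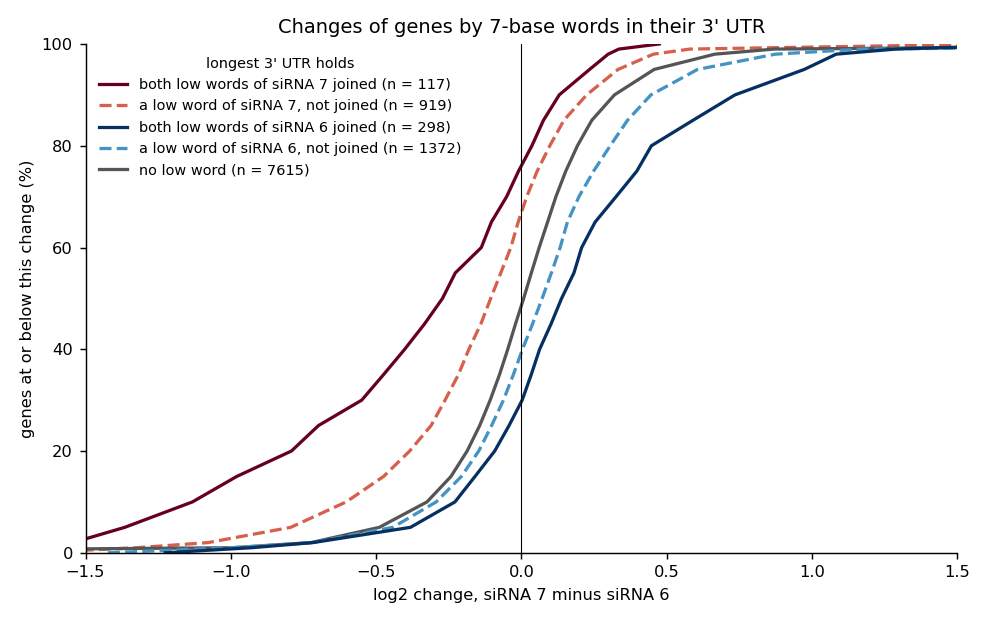
Share of genes at or below each log2 change of siRNA 7 minus siRNA 6, with 1 line for each group of genes by the low words in their longest 3′ UTR. The line of genes with joined siRNA 7 words lies left of the others (median -0.272) and that of joined siRNA 6 words right (median 0.138), with genes that hold no low word between them (median 0.00753).

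Genes with a word were lower with the siRNA it was found for and near the controls with the other. Genes with GCTAACA had a median log2 change of -0.116 with siRNA 7 against controls and of 0.00886 with siRNA 6 against controls. Genes with ATGACTG had 0.00194 with siRNA 7 and -0.0506 with siRNA 6 against the same controls. The shift was larger where the 3′ UTR was short: in the shortest of 3 equal classes of UTR length, 52 genes with GCTAACA had a median of -0.346 for siRNA 7 against siRNA 6 and 55.8% were called lower, against a median of 0.0171 for genes of that class without it. Genes with the word only upstream of the 3′ UTR had a median of -0.0509 with 26% called lower, and genes with its reverse complement a median of 0.0192 with 16.8% called lower. For ATGACTG the medians upstream and for the reverse complement were -0.00862 and -0.0238. The 121 genes with GCTAACA at 2 or more places had a median of -0.123 for siRNA 7 against siRNA 6, with 33.1% called lower. All 960 genes with GCTAACA had -0.104 and 34.9%. Of the 25 largest falls against controls, 11 held a low word of siRNA 7 among those of siRNA 7, and 21 held a low word of siRNA 6 among those of siRNA 6. Over all 3′ UTRs the shares were 15.1% and 20.9%. The words were chosen on these same changes against controls, so higher shares here were built in and carry no test.

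Genes lowered by siRNA 7 included several with its joined words. PRDX3, the peroxiredoxin of mitochondria, stood at 1412 and 1252 with siRNA 7, 4657 and 4632 with siRNA 6 and 4599 and 4839 in controls, a log2 change of siRNA 7 against siRNA 6 of -1.80 (SE 0.04, adjusted p = 2.2e-32). LIPA, the lysosomal acid lipase, stood at 561 and 534 in the siRNA 7 libraries, 1767 and 1845 in the siRNA 6 libraries and 1671 and 1710 in the controls, with a change of -1.72 (SE 0.05, adjusted p = 6.4e-29). PIMREG, a mitotic regulator, had 270 and 229 with siRNA 7, 725 and 761 with siRNA 6 and 816 and 790 in controls, with a change of -1.57 (SE 0.07, adjusted p = 1.2e-22). In all 3 the siRNA 6 libraries lay at or near the controls and the siRNA 7 libraries far below, with no overlap. The same held for PUDP, a pseudouridine phosphatase, at -1.57, and for TSPAN12, a tetraspanin of Norrin signalling that holds GCTAACA at 2 places, at -1.69. LIPA overlaps the IFIT genes in RefSeq, and since the strand counted is not stated, their reads may not be told apart.

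MEGF6, EFHB and CYP1B1 were also much lower with siRNA 7, and they hold no low word in the 3′ UTR. MEGF6, a secreted protein with EGF repeats, stood at 71.7 and 88.3 with siRNA 7, 581 and 562 with siRNA 6 and 778 and 745 in controls. Both siRNA 7 libraries lay far below all others, and siRNA 6 moved it in the same direction by far less (-3.24 and -0.41 against controls). The siRNA 7 against siRNA 6 change was -2.83 (SE 0.08, adjusted p = 1.9e-29). EFHB, which carries EF-hand calcium-binding motifs, had 12.4 and 8.12 in the siRNA 7 libraries, 72.6 and 62.2 in the siRNA 6 libraries and 64.6 and 52.9 in the controls, a change of -2.62 (SE 0.22, adjusted p = 1.2e-13). CYP1B1, a cytochrome P450 that oxidises oestrogens and xenobiotics, had 384 and 296 with siRNA 7, 1280 and 1247 with siRNA 6 and 1239 and 1355 in controls, a change of -1.90 (SE 0.08, adjusted p = 2.1e-24). For EFHB and CYP1B1 siRNA 6 did not pass the test against controls (0.20, adjusted p = 0.567, and -0.04, adjusted p = 0.785). ABCA12, a lipid transporter of the skin barrier, had -1.58 (adjusted p = 1.1e-08), but it holds a low word of each siRNA.

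The 2 endothelin genes went opposite ways. EDN2, a vasoconstrictor peptide, had the largest fall of all tested genes: 42.7 and 18.3 with siRNA 7, 264 and 287 with siRNA 6 and 131 and 163 in controls, a change of -3.25 (SE 0.19, adjusted p = 1.2e-18). The controls lay between the siRNAs, and both siRNAs passed the test against them, at -2.34 (SE 0.19, adjusted p = 8.0e-14) for siRNA 7 and 0.91 (SE 0.19, adjusted p = 2.7e-04) for siRNA 6. EDN1, the form best known from endothelium, stood at 407 and 367 in the siRNA 7 libraries, 134 and 133 in the siRNA 6 libraries and 274 and 282 in the controls, a change of 1.53 (SE 0.10, adjusted p = 2.9e-16), again with the controls between and both siRNAs past the test (0.47 with siRNA 7 and -1.05 with siRNA 6). Neither gene held a low word in its 3′ UTR. VCAM1, an adhesion molecule for leukocytes, had -1.58 (adjusted p = 1.7e-17) and likewise lay below the controls with siRNA 7 and above them with siRNA 6 (-0.69 and 0.89).

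**Figure D3:**
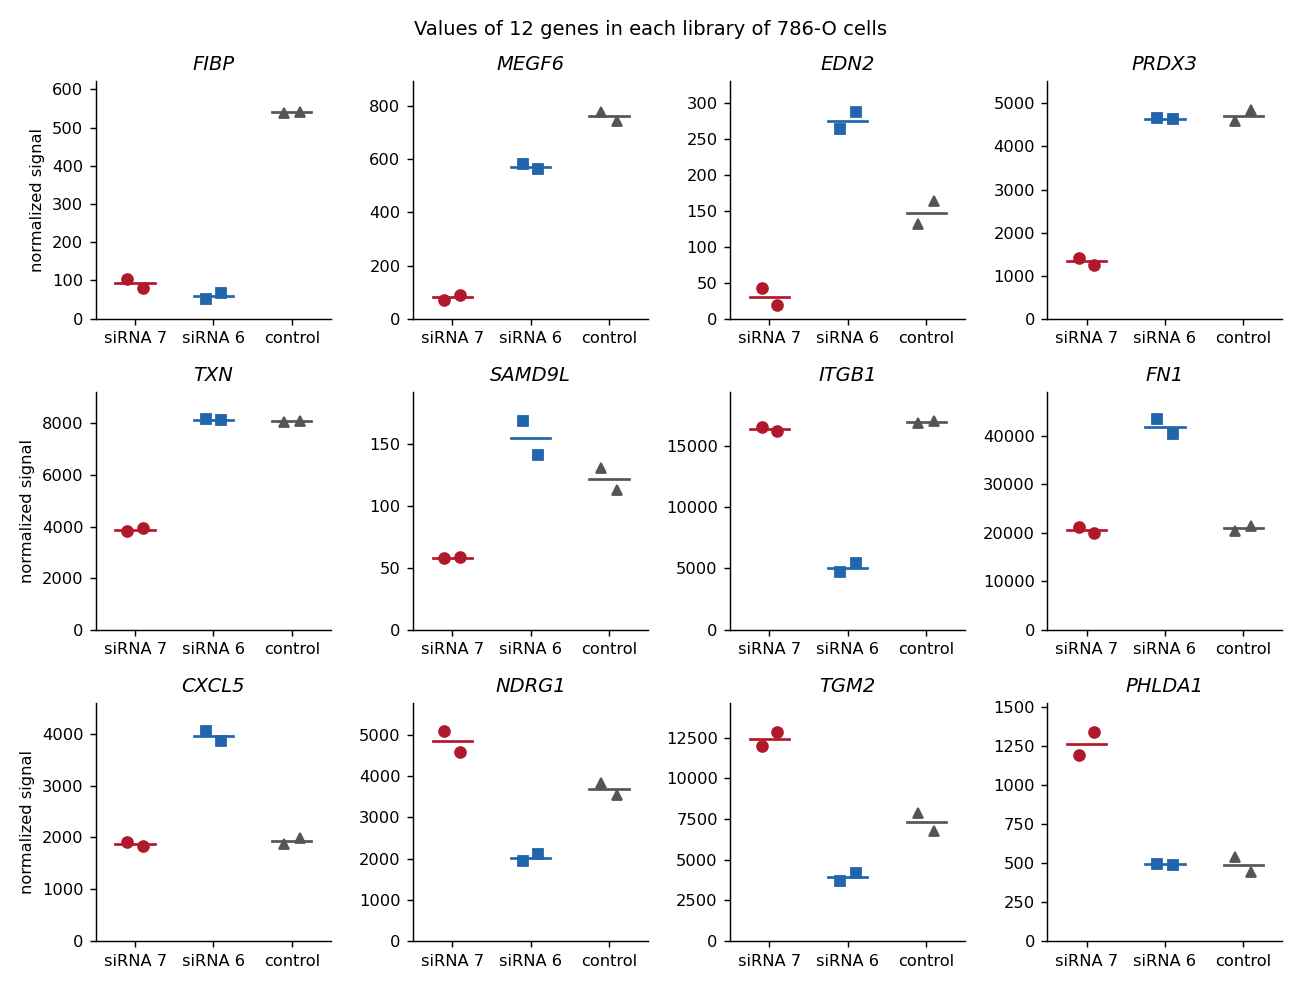
Normalized signal of 12 genes in each library, with siRNA 7 left, siRNA 6 in the middle and controls right. Points are libraries, lines are the mean of 2, and each axis starts at 0. PRDX3, TXN and SAMD9L were low with siRNA 7 (PRDX3 1412 and 1252) and not with siRNA 6, ITGB1 was low with siRNA 6 (4679 and 5401) and not with siRNA 7, and FN1 and CXCL5 were high with siRNA 6 and not with siRNA 7.

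Genes raised by siRNA 7 included membrane, chromatin and vesicle proteins. GPRC5A, a retinoic acid-induced orphan receptor, stood at 205 and 211 with siRNA 7, 42 and 58.8 with siRNA 6 and 59.3 and 70.9 in controls, a change of 2.04 (SE 0.17, adjusted p = 9.3e-14). SCG5, a chaperone of a prohormone convertase, had 752 and 828 in the siRNA 7 libraries, 253 and 228 in the siRNA 6 libraries and 282 and 264 in the controls, a change of 1.71 (SE 0.09, adjusted p = 2.2e-19). HMGA1, an architectural chromatin protein, had 1.65, DOCK4, an exchange factor for Rac and Rap, 1.78, and STX1A, a syntaxin of vesicle fusion, 1.61. For these 5 genes the siRNA 6 libraries were not called apart from the controls (adjusted p from 0.101 to 0.567), which does not show that siRNA 6 left them alone. GPRC5A and DOCK4 hold the first low word of siRNA 6, and HMGA1 holds GCTAACA. F3, tissue factor, the trigger of blood clotting, was at 4239 and 4223 with siRNA 7, 1558 and 1534 with siRNA 6 and 2195 and 2118 in controls, a change of 1.45 (SE 0.05, adjusted p = 1.3e-28). TGM2, the tissue transglutaminase that cross-links proteins, was at 11995 and 12837 in the siRNA 7 libraries, 3668 and 4172 in the siRNA 6 libraries and 7894 and 6792 in the controls, a change of 1.67 (SE 0.05, adjusted p = 1.2e-28). GPAT3, an acyltransferase of triglyceride synthesis, and HES1, a Notch-induced repressor, had 1.87 and 1.65. In F3, TGM2, GPAT3 and HES1 the controls lay between the siRNAs, siRNA 7 being above them (0.97, 0.76, 0.67 and 0.76) and siRNA 6 below (-0.48, -0.90, -1.20 and -0.89), each past the test. All 4 held a low word of siRNA 6.

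ERK is the kinase at the end of the growth-factor cascade, and it switches on its own phosphatases and a small set of ETS transcription factors. Of 19 tested genes of this response, 11 were called higher with siRNA 7 than with siRNA 6 and 1 lower, a share of 57.9% and 5.26%, and the median log2 change was 0.358 against 0.00201 over all tested genes. Against controls 12 were higher and 2 lower with siRNA 7, and 4 higher and 4 lower with siRNA 6. ETV5 stood at 280 and 333 with siRNA 7, 156 and 145 with siRNA 6 and 135 and 110 in controls, with a change of 1.02 (SE 0.13, adjusted p = 1.4e-08). ETV4 had 49.6 and 63.9 in the siRNA 7 libraries, 22 and 19.2 in the siRNA 6 libraries and 31.8 and 21.7 in the controls, and ETV1 56.5 and 48.7 with siRNA 7, 10.5 and 10.2 with siRNA 6 and 24.4 and 29.3 in controls, with changes of 1.41 (SE 0.30, adjusted p = 2.1e-04) and 2.24 (SE 0.30, adjusted p = 5.8e-08). Of these 3 related ETS factors, ETV1 was below the controls with siRNA 6 (-1.29, SE 0.30, adjusted p = 0.00113), while ETV4 and ETV5 were not called with it (adjusted p = 0.458 and 0.0859). ETV1 and ETV5 hold a low word of siRNA 6 and ETV4 holds none, and ETV4 overlaps DHX8 in RefSeq. DUSP6, the cytoplasmic phosphatase of ERK, had 71.7 and 77.1 in the siRNA 7 libraries, 42 and 29.4 in the siRNA 6 libraries and 28.6 and 35 in the controls, a change of 1.06 (SE 0.25, adjusted p = 7.4e-04). PHLDA1, an early response gene, had 1193 and 1343 with siRNA 7, 497 and 491 with siRNA 6 and 540 and 440 in controls, a change of 1.36 (SE 0.08, adjusted p = 2.7e-18), and siRNA 6 was at the controls (0.02, adjusted p = 0.907). JUNB, named after its value was seen, was the 1 member called lower (-0.30, adjusted p = 2.1e-04), and with DESeq2 0 members were lower. Among the 14 members with no low word, 7 were higher.

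The ligands, receptors and adaptors upstream of ERK moved in both directions. FIBP is one of 17 tested genes of the FGF system, of which 5 were higher with siRNA 7, FIBP itself among them, and 5 lower. Each share was 29.4%, against 17.9% and 17.7% of all genes. FGF5, a ligand, stood at 373 and 363 with siRNA 7, 158 and 140 with siRNA 6 and 170 and 174 in controls, a change of 1.30 (SE 0.11, adjusted p = 3.9e-13). FGFR2, a receptor, stood at 77.2 and 75.1 in the siRNA 7 libraries, 209 and 187 in the siRNA 6 libraries and 211 and 254 in the controls, a change of -1.36 (SE 0.12, adjusted p = 5.9e-13). GRB2, the adaptor that links receptors to SOS and RAS, stood at 2434 and 2510 with siRNA 7, 1105 and 1230 with siRNA 6 and 1896 and 1907 in controls, a change of 1.08 (SE 0.05, adjusted p = 6.1e-23), with siRNA 7 above the controls (0.38) and siRNA 6 below (-0.71). So siRNA 7 libraries had more FGF5 mRNA and less FGFR2 mRNA than siRNA 6 libraries and controls. FGFR2 and GRB2 hold a low word of siRNA 6, and FGF5 its second word. Of the 7 members with no low word, 1 was higher and 2 were lower.

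Among genes moved by siRNA 6 was ITGB1, the integrin beta 1 chain that most cells use to hold on to fibronectin, collagen and laminin. It had 16523 and 16167 with siRNA 7, 4679 and 5401 with siRNA 6 and 16868 and 16973 in controls, a change of 1.70 (SE 0.04, adjusted p = 1.5e-33). The siRNA 7 libraries were at the controls (-0.05, adjusted p = 0.344) and the siRNA 6 libraries at 29.8% of them (-1.75, SE 0.04, adjusted p = 4.5e-34). Its 3′ UTR holds the joined siRNA 6 words shown above. SNORA104, a small nucleolar RNA, followed it: 335 and 327 in the siRNA 7 libraries, 72.6 and 81.4 in the siRNA 6 libraries and 306 and 342 in the controls, a change of 2.09 (SE 0.10, adjusted p = 2.1e-21). RefSeq places SNORA104 within the span of ITGB1P1, a pseudogene copy of ITGB1, so its reads and those of ITGB1 may not be told apart and its value is uncertain. Of the other integrin chains, ITGB8 was higher with siRNA 7 (0.99, SE 0.08, adjusted p = 1.8e-13) and ITGA6 too (0.23, SE 0.06, adjusted p = 0.00181), and ITGB6 was lower (-0.54, SE 0.18, adjusted p = 0.013). In all, 4 of 12 tested integrin chains were higher (33.3%) and 2 lower (16.7%), against 17.9% and 17.7% of all genes. The call of ITGB6 was lost with DESeq2 and without siRNA 6 replicate 2 or siRNA 7 replicate 2, and that of ITGA6 without siRNA 7 replicate 2. The lower count was 0 without siRNA 6 replicate 2 or siRNA 7 replicate 2, and 1 without siRNA 6 replicate 1 or either control library.

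Several more genes were low with siRNA 6. GM2A, the lysosomal activator of GM2 ganglioside breakdown, had 248 and 261 with siRNA 7, 102 and 105 with siRNA 6 and 291 and 277 in controls, a change of 1.29 (SE 0.10, adjusted p = 6.4e-14). PGM2L1, which makes glucose 1,6-bisphosphate, had 120 and 116 in the siRNA 7 libraries, 49.7 and 52 in the siRNA 6 libraries and 117 and 142 in the controls, a change of 1.20 (SE 0.15, adjusted p = 8.9e-09). PRKAR2B, a regulatory subunit of protein kinase A, had 78.5 and 80.2 with siRNA 7, 30.6 and 32.8 with siRNA 6 and 65.7 and 73.7 in controls, a change of 1.30 (SE 0.19, adjusted p = 2.5e-07). In these 3 genes the siRNA 7 libraries were not called apart from the controls (adjusted p = 0.254, 0.56 and 0.481), the siRNA groups did not overlap, and a low word of siRNA 6 stands in each 3′ UTR, with GCTAACA beside it in that of PGM2L1.

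NF-kB is a transcription factor of inflammation whose targets include chemokines, adhesion molecules and its own inhibitors. Of 25 tested targets and cytokines, 17 (68%) were lower with siRNA 7 than with siRNA 6 and 4 were higher, with a median log2 change of -0.564. Against controls siRNA 6 raised 21 and lowered 1, while siRNA 7 raised 7 and lowered 7. CXCL5, a chemokine for neutrophils, stood at 1913 and 1832 with siRNA 7, 4064 and 3861 with siRNA 6 and 1873 and 1995 in controls, a change of -1.08 (SE 0.05, adjusted p = 1.6e-22). PTX3, a secreted pattern recognition protein, stood at 222 and 198 in the siRNA 7 libraries, 468 and 481 in the siRNA 6 libraries and 168 and 202 in the controls, a change of -1.17 (SE 0.11, adjusted p = 2.6e-12). TNFRSF9, a costimulatory receptor, stood at 287 and 262 with siRNA 7, 603 and 545 with siRNA 6 and 295 and 330 in controls, a change of -1.06 (SE 0.08, adjusted p = 4.4e-14). In these 3 genes siRNA 7 was not called apart from controls (adjusted p = 0.507, 0.198 and 0.0878), and both siRNA 6 libraries were above both controls. CCL2, the chemokine for monocytes, had the lowest change, 81.3 and 49.7 in the siRNA 7 libraries, 275 and 291 in the siRNA 6 libraries and 102 and 181 in the controls, at -2.13 (SE 0.19, adjusted p = 6.2e-13), with siRNA 7 below the controls (-1.08) and siRNA 6 above (1.05). The 17 lower members comprised 7 with the control mean near siRNA 7, 7 with the controls between the siRNAs and 3 with both siRNAs on 1 side and siRNA 6 farther. Of the 18 members with no low word, 13 were lower and 1 was higher. The lower count was 14 to 17 when each library was left out in turn, and the higher count was 2 without siRNA 7 replicate 1 or 2 or without siRNA 6 replicate 1.

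HIF-2 targets are of interest in this line, where the lack of VHL keeps the factor active. Of 40 tested HIF and hypoxia targets, 21 (52.5%) were higher with siRNA 7 than with siRNA 6 and 3 (7.5%) lower, with a median of 0.163, and the higher count was 20 without any 1 of the 6 libraries. Against controls siRNA 6 lowered 17 and raised 3, and siRNA 7 raised 12 and lowered 8. NDRG1, a hypoxia-induced gene, stood at 5085 and 4595 with siRNA 7, 1939 and 2106 with siRNA 6 and 3831 and 3543 in controls, a change of 1.26 (SE 0.05, adjusted p = 2.0e-25), with siRNA 7 above the controls (0.39) and siRNA 6 below (-0.87). STC1, a secreted stanniocalcin that holds GCTAACA, had 164 and 140 in the siRNA 7 libraries, 80.2 and 66.7 in the siRNA 6 libraries and 158 and 108 in the controls, a change of 1.04 (SE 0.16, adjusted p = 7.8e-07). DDIT4, an inhibitor of mTORC1, had 4222 and 3807 with siRNA 7, 2236 and 2499 with siRNA 6 and 3732 and 3686 in controls, a change of 0.76 (SE 0.05, adjusted p = 9.6e-18). For both of these siRNA 6 was below the controls (-0.83 and -0.65) and siRNA 7 was not called (0.21 and 0.11). ANGPTL4, a secreted inhibitor of lipoprotein lipase, was moved by siRNA 7 instead, with 88.2 and 122 in the siRNA 7 libraries, 10.5 and 11.3 in the siRNA 6 libraries and 10.6 and 8.51 in the controls, a change of 3.14 (SE 0.36, adjusted p = 1.7e-09), and siRNA 6 at the controls (adjusted p = 0.775). SLC2A3, a glucose transporter, was also higher with siRNA 7 (0.91, SE 0.13, adjusted p = 1.4e-07). Among 25 members with no low word 11 were higher and 1 lower.

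**Figure D4:**
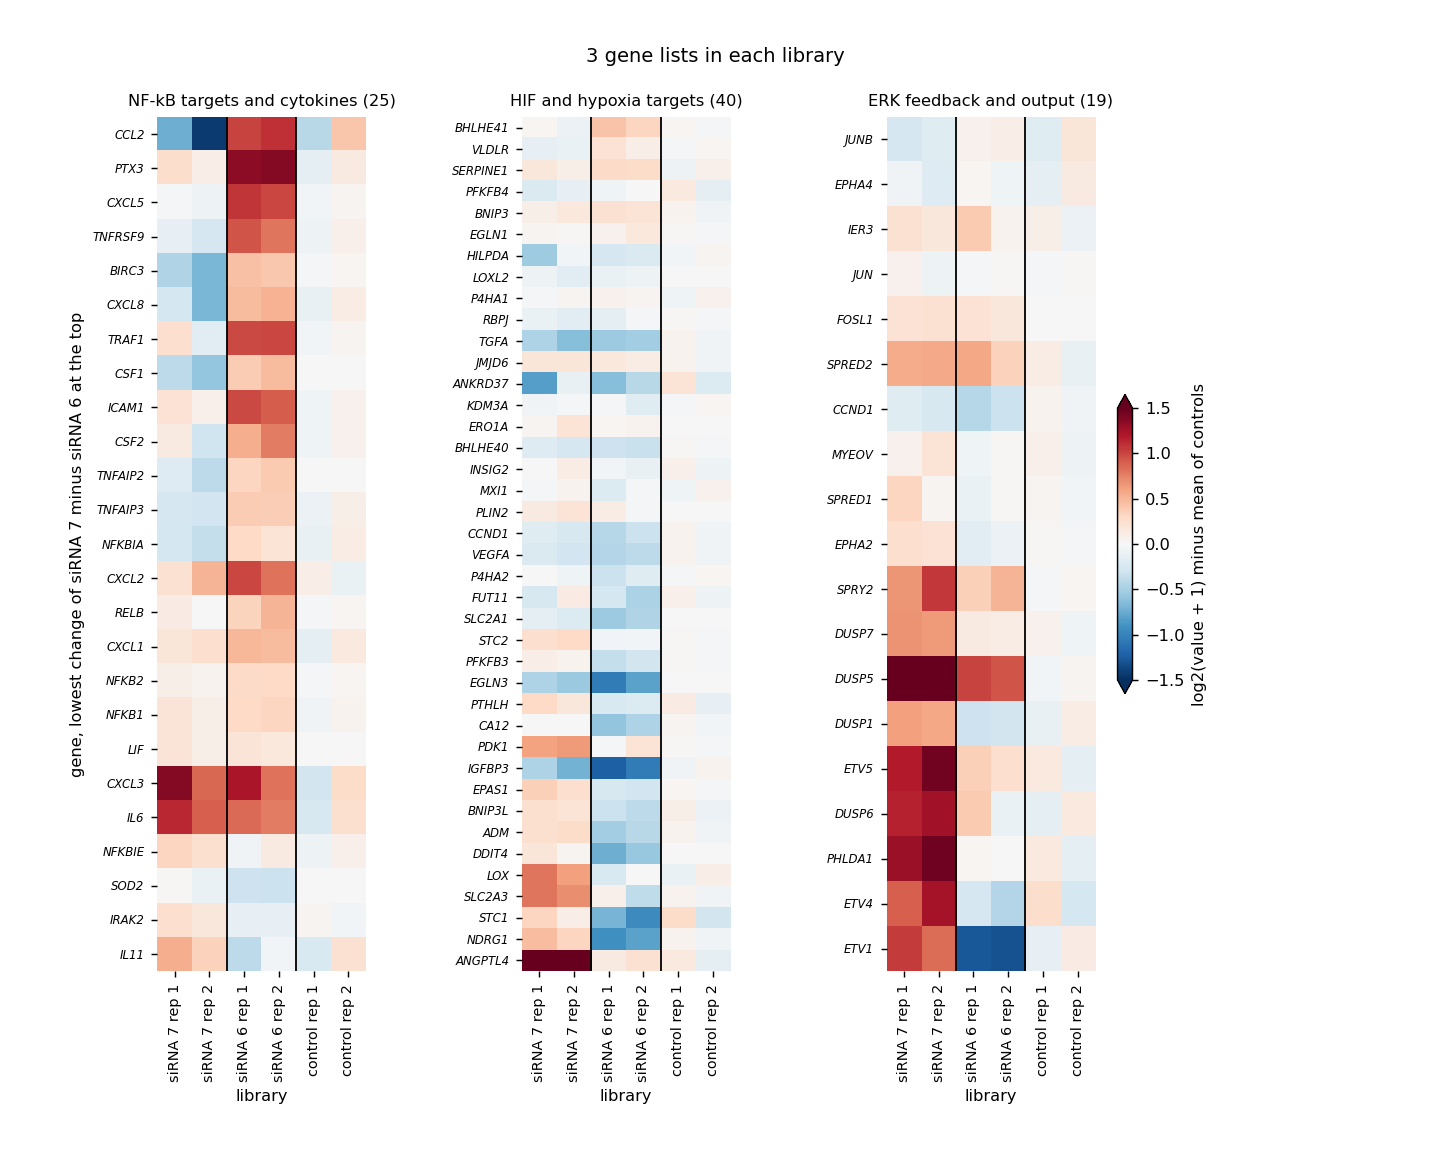
Each row is 1 gene and each column 1 library, with siRNA 7 left, siRNA 6 in the middle and controls right, coloured by log2(value + 1) minus the mean of the 2 controls, and colours stop at 1.5 in both directions. Of 25 NF-kB targets 21 were higher than controls with siRNA 6, of 40 HIF targets 17 were lower than controls with siRNA 6, and of 19 ERK genes 12 were higher than controls with siRNA 7.

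In the extracellular matrix, the scaffold that integrins hold, of 39 tested genes 24 (61.5%) were lower with siRNA 7 than with siRNA 6 and 7 (17.9%) higher, with a median of -0.217. FN1, fibronectin, among the most abundant of these mRNAs, had 21159 and 19872 with siRNA 7, 43382 and 40469 with siRNA 6 and 20301 and 21497 in controls, a change of -1.03 (SE 0.03, adjusted p = 9.3e-28). With siRNA 7 it was not called apart from the controls (-0.03, adjusted p = 0.589) and with siRNA 6 it was higher (1.00, SE 0.03, adjusted p = 1.3e-26). It overlaps ATIC in RefSeq. Of lower signal were MMP9, a gelatinase, with 22 and 21.3 in the siRNA 7 libraries, 38.2 and 40.7 in the siRNA 6 libraries and 27.5 and 19.9 in the controls (-0.83, SE 0.27, adjusted p = 0.0114), COL12A1, a fibril-associated collagen, with -0.79 (adjusted p = 0.0227), and LUM, lumican, with -1.10 (adjusted p = 0.0176). The calls of MMP9, COL12A1 and LUM were lost with DESeq2 and without at least 1 library. Of the 24 lower members, the control mean lay near siRNA 6 for 8, near siRNA 7 for 4 and between the siRNAs for 6, and both siRNAs were on 1 side of it for the other members, 4 with siRNA 7 farther and 2 with siRNA 6 farther. Against controls siRNA 7 lowered 18 and raised 8, and siRNA 6 lowered 3 and raised 13. Of 31 members with no low word 19 were lower and 4 higher, and leaving out siRNA 7 replicate 2 took the higher count to 4.

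Of 31 tested interferon-induced genes, 12 (38.7%) were lower than with siRNA 6 and 1 was higher, with 18 not called and a median of -0.263, while against controls siRNA 7 lowered 9 and raised 2 and siRNA 6 raised 3. IFIT1, which binds viral RNA and has GCTAACA in its 3′ UTR, had 68.9 and 74.1 in the siRNA 7 libraries, 202 and 189 in the siRNA 6 libraries and 206 and 201 in the controls, a change of -1.44 (SE 0.12, adjusted p = 1.5e-13), and it overlaps LIPA. SAMD9L, an antiviral protein, had 57.9 and 58.9 with siRNA 7, 169 and 141 with siRNA 6 and 131 and 113 in controls, a change of -1.39 (SE 0.14, adjusted p = 1.0e-10). IFIT1 and SAMD9L were not called between siRNA 6 and controls (adjusted p = 0.784 and 0.0883). IRF7, of low signal at 11 and 19.3 in the siRNA 7 libraries, 31.5 and 23.7 in the siRNA 6 libraries and 19.1 and 11.3 in the controls, was called at an adjusted p of 0.0482, and this call was lost with DESeq2 and with edgeR. The count of 12 was 7 without siRNA 6 replicate 1, without siRNA 6 replicate 2 and with DESeq2, and the 1 higher member was lost without siRNA 6 replicate 2 or either control library.

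Many genes of the cell cycle were lower than controls with either siRNA. Of 44 tested mitosis genes 19 (43.2%) were lower with siRNA 7 than with siRNA 6 and 8 (18.2%) higher, and against controls siRNA 7 lowered 28 and raised 2 and siRNA 6 lowered 14 and raised 3. Over all 11768 genes tested, siRNA 7 lowered 2055 (17.5%) and siRNA 6 lowered 1391, so siRNA 7 had more lower calls than siRNA 6 over all genes too. The changes were small. KIF20A, a kinesin of cytokinesis, had 2103 and 1942 with siRNA 7, 2892 and 2836 with siRNA 6 and 3077 and 2987 in controls, a change of -0.50 (SE 0.04, adjusted p = 4.9e-13). NUSAP1, which bundles spindle microtubules, had -0.43 (adjusted p = 4.7e-11), and CENPE, a kinetochore motor, -0.41 (adjusted p = 6.1e-09). Of 43 DNA replication genes 12 were lower (27.9%) and 7 higher (16.3%), against 17.7% and 17.9% of all genes. Against controls 26 were lower with siRNA 7 and 21 with siRNA 6. POLA1, the catalytic subunit of primase-polymerase alpha, had 765 and 725 in the siRNA 7 libraries, 1172 and 1121 in the siRNA 6 libraries and 1010 and 1054 in the controls, a change of -0.62 (SE 0.06, adjusted p = 2.1e-12), and MCM6, of the replicative helicase, -0.38 (adjusted p = 3.0e-10). FEN1, the flap endonuclease, went the other way at 0.44 (adjusted p = 1.2e-09), lower than controls with siRNA 6 (-0.36). Its 3′ UTR holds the second low word of siRNA 6, and that of POLA1 holds the second low word of each siRNA. KIF20A, NUSAP1, CENPE and MCM6 hold no low word there. The 7 higher replication genes were 4 without siRNA 6 replicate 1, 3 without siRNA 7 replicate 2 and 2 with DESeq2. In bulk RNA, fewer cells in a phase and less RNA per cell cannot be told apart.

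The targets of NRF2, the regulator of antioxidant genes, had 10 of 24 tested members lower (41.7%) and 3 higher (12.5%). Of all genes 17.7% were lower and 17.9% higher. TXN, thioredoxin, stood at 3817 and 3945 with siRNA 7, 8154 and 8133 with siRNA 6 and 8070 and 8073 in controls, a change of -1.07 (SE 0.04, adjusted p = 1.4e-27), with siRNA 6 at the controls (adjusted p = 0.842), and GCTAACA stands in its 3′ UTR. GSR, glutathione reductase, had 449 and 390 in the siRNA 7 libraries, 744 and 677 in the siRNA 6 libraries and 593 and 518 in the controls, a change of -0.76 (SE 0.08, adjusted p = 2.2e-11), with the controls between the siRNAs. AKR1B10, an aldo-keto reductase, and ABCC3, an export pump, had -0.78 and -0.62 (adjusted p = 7.7e-04 and 1.9e-05). Like PRDX3, also an enzyme of peroxide defence, TXN was low with siRNA 7 and not called with siRNA 6. Of 19 members with no low word 8 were lower and 3 higher.

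All 7 markers chosen for the kidney tubule were among the genes listed. Their summed signal was 4620 and 4529 with siRNA 7, 5470 and 5650 with siRNA 6 and 5643 and 5670 in controls. Of a list of 22 tubule genes, 11 were among the genes listed and 10 were tested. Of those tested, 5 were lower with siRNA 7 (50%) and 3 higher (30%), against 17.7% and 17.9% of all genes. DPP4, a brush border peptidase, had 464 and 447 with siRNA 7, 920 and 839 with siRNA 6 and 746 and 838 in controls, a change of -0.95 (SE 0.07, adjusted p = 5.0e-16). CDH6, a cadherin of the developing tubule, had 393 and 366 in the siRNA 7 libraries, 678 and 632 in the siRNA 6 libraries and 687 and 759 in the controls, a change of -0.79 (SE 0.07, adjusted p = 7.3e-12). MME, neprilysin, was higher, at 0.52 (adjusted p = 1.4e-04). For all 3 siRNA 6 was not called against controls. CDH6 and MME, which changed in opposite directions, both hold CTAACAA, and MME also holds a low word of siRNA 6. The 3 higher were 1 without siRNA 6 replicate 1 or with DESeq2. Of markers of other cell types, CD68 was the 1 of 7 blood markers with a value, at 243.9 and 258.8 with siRNA 7, 241.6 and 213.7 with siRNA 6 and 169.5 and 195.7 in controls, so all 4 siRNA libraries lay above both controls, and 0 of 3 endothelial markers had one. Of 5 tested markers of other cell types 1 was higher and 1 lower. Of 3 epithelial markers EPCAM and KRT18 had values and CDH1 had none. The pair summed to 4645 and 4655 with siRNA 7, 3312 and 3400 with siRNA 6 and 3511 and 3472 in controls. Nearly all of this was KRT18, at 4590 and 4615 with siRNA 7, 3261 and 3358 with siRNA 6 and 3446 and 3404 in controls. The mesenchymal pair PDGFRB and ACTA2 summed to 17.91 and 20.3 with siRNA 7, 43.93 and 41.84 with siRNA 6 and 40.26 and 56.72 in controls, and their part in the results above was not tested.

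YAP and TEAD targets, which report on cell shape and adhesion, were split. Of 22 tested, 12 (54.5%) were higher with siRNA 7 and 8 (36.4%) lower, against 17.9% and 17.7% of all genes. A low word of siRNA 6 stood in 8 members and one of siRNA 7 in 3. Of the 13 members with no low word, 6 were higher and 7 lower. CTGF, a matricellular protein, had 358 and 417 with siRNA 7, 209 and 185 with siRNA 6 and 236 and 202 in controls, a change of 0.97 (SE 0.10, adjusted p = 1.8e-10). DLC1, a GTPase-activating protein, had 696 and 679 in the siRNA 7 libraries, 380 and 361 in the siRNA 6 libraries and 374 and 414 in the controls, a change of 0.89 (SE 0.08, adjusted p = 5.5e-13). TGFB2, a TGF-beta ligand, was lower at -0.58 (adjusted p = 9.5e-13). The control mean lay near siRNA 6 for all 3, and siRNA 6 had -0.15, -0.09 and 0.14 against controls. In the TGF-beta pathway 12 of 28 tested genes were lower (42.9%) and 5 higher (17.9%), against 17.7% and 17.9% of all genes. Its receptor TGFBR2 was higher with siRNA 7 (1226 and 1224 with siRNA 7, 798 and 726 with siRNA 6 and 779 and 743 in controls; 0.69, SE 0.06, adjusted p = 1.1e-12), as was LTBP2, while the related latent binding protein LTBP1 was lower (0.64 and -0.95, adjusted p = 0.0239 and 9.6e-04). The call of LTBP2 was lost with DESeq2 and without any 1 of the 4 siRNA libraries, and that of LTBP1 without siRNA 7 replicate 2. The 12 lower were 6 without siRNA 7 replicate 2 or with DESeq2, and the 5 higher were 3 without siRNA 6 replicate 1 or with DESeq2.

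Among transporters and stress genes more were higher than lower with siRNA 7. Of 29 solute carriers 13 (44.8%) were higher and 3 lower: SLC43A2, a transporter of large neutral amino acids, had 226 and 242 with siRNA 7, 99.3 and 96.1 with siRNA 6 and 165 and 174 in controls (adjusted p = 3.9e-12), and SLC39A8, a zinc and manganese importer, 0.58 (adjusted p = 2.6e-12). SLC1A3, a glutamate transporter, was lower, with 53.7 and 25.4 in the siRNA 7 libraries, 94.5 and 96.1 in the siRNA 6 libraries and 51.9 and 53.9 in the controls, a change of -1.34 (SE 0.22, adjusted p = 3.8e-06). It was not called with siRNA 7 against controls (-0.50, adjusted p = 0.0752) and was raised by siRNA 6 (0.84, adjusted p = 0.00414). All 3 of these carriers hold a low word of siRNA 7, and SLC43A2 and SLC39A8 were above controls with it (0.46 and 0.22). Both of these also hold a low word of siRNA 6. Of 27 p53 targets 10 (37%) were higher and 3 lower, among them PLK3, a stress kinase, and TNFRSF10B, a death receptor, at 0.70 and 0.46 (adjusted p = 6.4e-05 and 1.6e-09), with the control mean near siRNA 6 for both. The 3 lower p53 targets were 1 without siRNA 6 replicate 2 or siRNA 7 replicate 2. Of 18 cytosolic heat shock genes 9 were higher and 4 lower, with the co-chaperones DNAJB6, DNAJB4 and BAG3 at 0.47, 0.43 and 0.38 and the small heat shock protein HSPB1 at -0.33. The heat shock counts were 5 higher without siRNA 7 replicate 2 and 2 lower without siRNA 6 replicate 1. Of 36 genes of the endoplasmic reticulum's folding machinery 10 were higher (27.8%) and 4 lower (11.1%). Over all genes the shares were 17.9% and 17.7%. Of 31 ATF4 targets and tRNA synthetases 11 were higher (35.5%) and 5 lower (16.1%). The lower count was 3 without siRNA 6 replicate 1 or siRNA 7 replicate 2.

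Ribosomal protein genes that were called were mostly higher with siRNA 7, by little. Of 74 tested, 24 (32.4%) were higher with siRNA 7 and 2 (2.7%) lower, with a median of 0.0464. Against controls siRNA 6 lowered 38, and siRNA 7 lowered 20 and raised 3. RPL13A had 901 and 970 with siRNA 7, 621 and 710 with siRNA 6 and 961 and 901 in controls, a change of 0.49 (SE 0.06, adjusted p = 2.9e-08), with siRNA 7 at the controls (adjusted p = 0.949). Ribosomal protein genes have many processed pseudogenes, and how reads shared with these were counted is not stated. The count of 24 was 14 without siRNA 6 replicate 1 and 15 without siRNA 7 replicate 2. Of 19 snoRNA host genes 8 were higher and 1 lower, with SNHG16 at 0.69 and SNHG5 at 0.48 (adjusted p = 1.7e-09 and 4.9e-13). The 8 were 5 without siRNA 6 replicate 1, and the 1 was 0 without siRNA 6 replicate 2 or siRNA 7 replicate 2. Of 51 genes of oxidative phosphorylation 16 were higher and 3 lower, and the 16 were 8 without siRNA 6 replicate 1. NDUFS3, a core subunit of complex I, went furthest and the other way, with 259 and 216 in the siRNA 7 libraries, 507 and 552 in the siRNA 6 libraries and 708 and 684 in the controls and a change of -1.16 (SE 0.08, adjusted p = 2.6e-16).

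In the lysosome, 12 of 37 tested genes were lower (32.4%) and 7 higher (18.9%). ATP6AP1 and ATP6V1A, parts of the proton pump that acidifies the lysosome, had the largest changes within this list, which leaves out LIPA and GM2A. ATP6AP1 stood at 613 and 644 with siRNA 7, 1790 and 1727 with siRNA 6 and 1449 and 1497 in controls, a change of -1.48 (SE 0.05, adjusted p = 3.8e-27), and ATP6V1A at 404 and 397 in the siRNA 7 libraries, 877 and 857 in the siRNA 6 libraries and 644 and 717 in the controls, a change of -1.11 (SE 0.07, adjusted p = 2.0e-18). Both hold both low words of siRNA 7, and both were slightly above controls with siRNA 6 (0.25 and 0.35). Of the 27 members with no low word 7 were lower and 7 higher, and without siRNA 6 replicate 1 the lower count was 7. The machinery that siRNAs themselves use had 4 of 20 tested genes lower and 2 higher, shares of 20% and 10% that are near or below the 17.7% and 17.9% of all genes. MOV10, an RNA helicase bound to argonaute, had 430 and 417 with siRNA 7, 913 and 923 with siRNA 6 and 865 and 764 in controls, a change of -1.11 (SE 0.06, adjusted p = 1.1e-18), and DICER1, which cuts precursors of small RNAs, had 515 and 480 in the siRNA 7 libraries, 947 and 893 in the siRNA 6 libraries and 870 and 830 in the controls, a change of -0.89 (SE 0.06, adjusted p = 1.3e-15). Both were at lower levels with siRNA 7 than in controls, and each holds a low word of siRNA 7. Of the 9 members with no low word 1 was called, and it was higher. The 2 higher were 1 without siRNA 6 replicate 2 or siRNA 7 replicate 1 and with DESeq2 or edgeR.

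Genes of nuclear speckles, the compartment the series is about, were called at shares near those of all genes. Of 43 tested speckle and SR protein genes 7 (16.3%) were higher with siRNA 7 and 6 (14%) lower, near the 17.9% and 17.7% of all genes. SRPK2, a kinase of SR proteins that holds both siRNA 7 words, had 715 and 625 with siRNA 7, 1477 and 1509 with siRNA 6 and 1326 and 1395 in controls, a change of -1.16 (SE 0.06, adjusted p = 2.1e-21), and SRRM1, a splicing coactivator with no low word, 930 and 1063 in the siRNA 7 libraries, 710 and 676 in the siRNA 6 libraries and 719 and 672 in the controls, a change of 0.52 (SE 0.07, adjusted p = 1.7e-08). MALAT1, the speckle RNA, was 2584 and 1440 with siRNA 7, 1270 and 1362 with siRNA 6 and 1694 and 1362 in controls, a change of 0.55 (SE 0.11, adjusted p = 7.1e-05), but its siRNA 7 libraries differed widely and the call was lost without siRNA 7 replicate 1 and with DESeq2. Of 9 paraspeckle genes 2 were higher and 1 lower, the last being the scaffold RNA NEAT1 at -0.71 (SE 0.05, adjusted p = 1.4e-15). The 7 higher speckle genes were 4 with DESeq2. Of 27 genes of TREX and mRNA export 6 were higher and 4 lower, and the 4 were 2 without siRNA 7 replicate 1 or either siRNA 6 library. Of the other 4 targets of the series limma called 0, with 1 at an unadjusted p below 0.05 and 0 called by DESeq2 and 0 by edgeR, and 1 was called higher without siRNA 6 replicate 2 or siRNA 7 replicate 2. Of 12 neighbours of FIBP on chromosome 11, with FIBP itself counted, 2 were higher (16.7%) and 3 lower (25%). The 2 higher were FIBP and EIF1AD (0.31). The call of EIF1AD was lost with DESeq2 and without siRNA 6 replicate 2 or siRNA 7 replicate 2. Of the 3 lower, CCDC85B went furthest (-0.67, adjusted p = 1.3e-06).

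**Figure D5:**
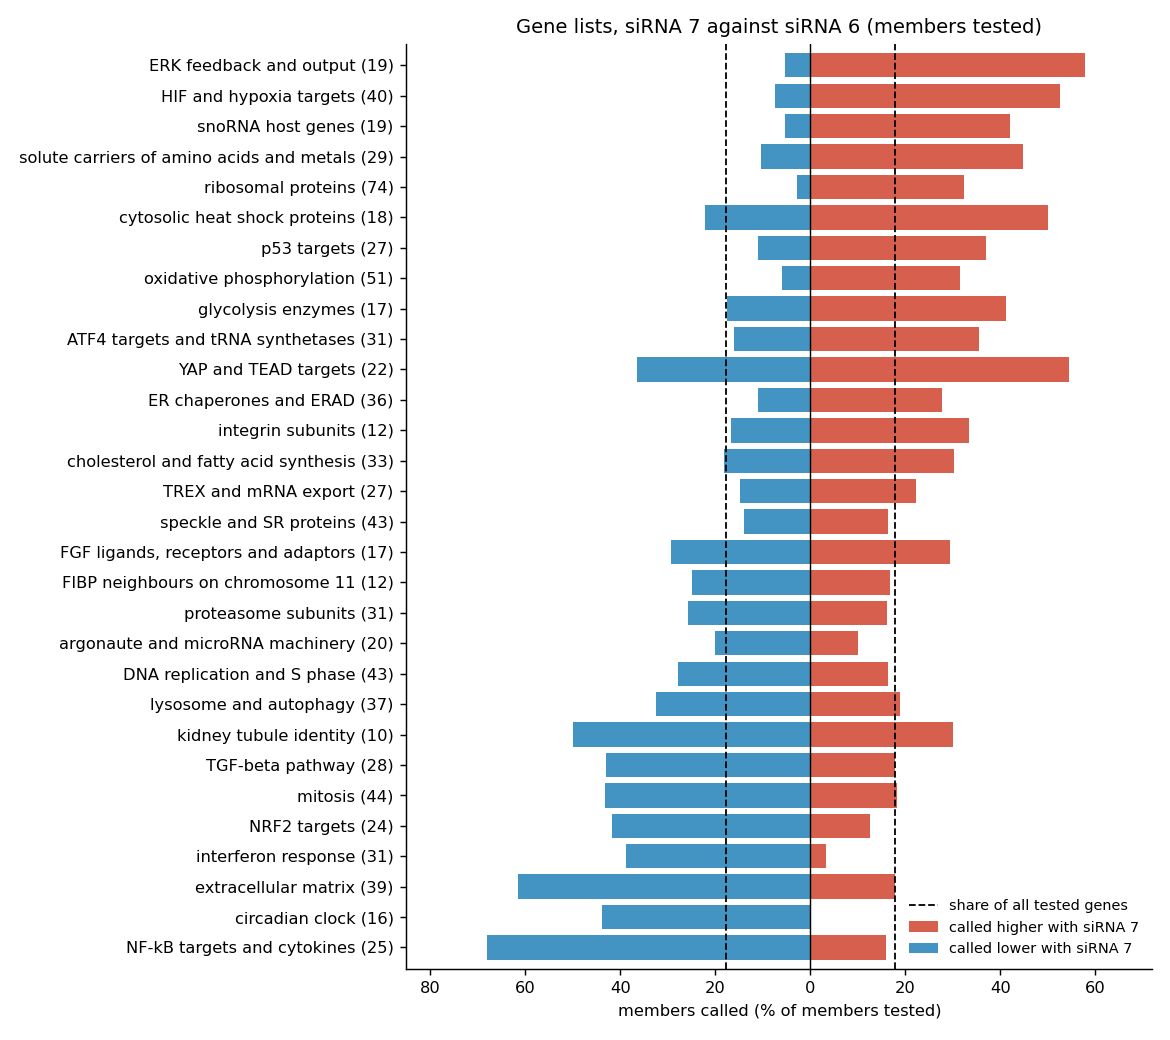
Members called higher (right) or lower (left) with siRNA 7 than with siRNA 6, as a percentage of the members tested (number in brackets), for lists of 10 or more tested genes. Dashed lines mark the 17.9% and 17.7% of all tested genes. ERK and HIF lists reach 57.9% and 52.5% on the right, and NF-kB and extracellular matrix lists 68% and 61.5% on the left.

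Some genes moved the same way with both siRNAs and differed in size. ARL6IP1, a shaping protein of the endoplasmic reticulum, had 9443 and 9552 with siRNA 7, 5901 and 6273 with siRNA 6 and 11962 and 11889 in controls, a change of 0.64 (SE 0.03, adjusted p = 4.5e-20). RAB8B, a GTPase of vesicle traffic, had 401 and 389 in the siRNA 7 libraries, 234 and 241 in the siRNA 6 libraries and 567 and 501 in the controls, a change of 0.73 (SE 0.08, adjusted p = 4.3e-10), and PHF6, a chromatin protein, 0.70 (adjusted p = 4.3e-12). These 3 were below controls with both siRNAs, further with siRNA 6, and each has a siRNA 6 word in the 3′ UTR. CLDN1, a tight junction claudin, was above controls with both, and further with siRNA 6: 529 and 446 with siRNA 7, 844 and 865 with siRNA 6 and 377 and 422 in controls, a change of -0.81 (SE 0.09, adjusted p = 2.0e-10). With siRNA 7 farther, RMND5A, a ubiquitin ligase subunit with both siRNA 7 words and a siRNA 6 word in its 3′ UTR, had 298 and 346 in the siRNA 7 libraries, 647 and 633 in the siRNA 6 libraries and 765 and 785 in the controls, a change of -0.99 (SE 0.07, adjusted p = 1.0e-15). PDZK1, a scaffold of tubule transporters, and SAMD11 had -1.12 and -1.17 (adjusted p = 2.3e-10 and 7.0e-11) and hold no low word in the 3′ UTR. In cholesterol synthesis, HMGCS1 was lower than controls with both siRNAs (-0.21 with siRNA 7 and -0.76 with siRNA 6). Of 33 tested genes of this pathway 10 were higher with siRNA 7 than with siRNA 6 (30.3%) and 6 lower (18.2%). Over all genes the shares were 17.9% and 17.7%. Of the 24 members with no low word, 4 were higher and 4 lower.

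In the remaining lists the changes were small. Of 17 glycolysis enzymes 7 were higher (41.2%) and 3 lower (17.6%), from -0.27 for PFKL to 0.52 for ENO2, the neuronal enolase. Of 16 circadian clock genes 7 were lower, with PER3 at -0.60 (SE 0.09, adjusted p = 1.7e-06). With DESeq2 the lower count was 3, and it was 4 without siRNA 7 replicate 2. Of 31 proteasome subunits 5 were higher (16.1%) and 8 lower (25.8%), against 17.9% and 17.7% of all genes. None was beyond 0.33 on the log2 scale. The 5 were 3 without siRNA 6 replicate 1 or siRNA 7 replicate 2, and the 8 were 3 without siRNA 7 replicate 2 and 5 without any other of the 4 siRNA libraries.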

How the data were processed

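Poly(A) RNA of 786-O cells was read after transfection of FIBP siRNA 7, FIBP siRNA 6 or a negative control siRNA, with 2 libraries each. As deposited, the table holds a normalized signal for each gene symbol, which the authors made by dividing gene counts by a size factor per library. Per the submitters' processing notes, hg19, STAR, Picard, HTSeq and DESeq2 were used; roles, annotation, strand and the rule limiting the genes listed are not given in the sources used here. Every value was a whole multiple of the value of 1 read (100% of values, tolerance 0.0001 of a read), so whole reads could be recovered.

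Of 12140 genes listed, 11768 with a mean of at least 10 over the 10 libraries of the table were tested. Entries for reads without a gene, ambiguous reads and reads aligned more than once (3) stayed out of the tests. Values were transformed as log2(value + 1), which understates changes of low genes. A single model over all 10 libraries was fitted with limma 3.58.1 (trend, R 4.3.3), two-sided, with Benjamini-Hochberg adjustment and a threshold of 0.05. The residual degrees of freedom were 5 and the prior degrees of freedom 38.4, so the spread of each gene was borrowed mostly from other genes. As alternatives, the recovered reads were tested with edgeR 4.0.16 (quasi-likelihood, TMM) and DESeq2 1.42.0, which called 4088 and 2621 genes between the siRNAs. The other alternatives were a pseudocount of 5, a mean of at least 50, no filter, quantile normalization, only the 6 libraries compared, a replicate block and leaving out each library. The fits were tested on simulated data.

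Low words were found by scoring 15808 words of 7 bases, each in at least 100 genes, in the longest 3′ UTR (30 bases or more) per symbol of GENCODE release 29 on GRCh38. A gene's place was read from (control mean minus siRNA 6) over (siRNA 7 minus siRNA 6), with bounds at -0.25, 0.25, 0.75 and 1.25. Named genes are FIBP, the 12 highest and 12 lowest changes (called, mean of at least 50, no overlap), 5 per place and up to 4 called members per list; the text names a selection. The comparison, the 33 gene lists and the words were chosen with earlier results of these data known. Some results that the rule would name are withheld and not reported here.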

Additional observations from a re-analysis of the deposited data

Results flagged for a closer look

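Reads that the tests did not use were more frequent with siRNA 7 than in controls. Reads without a gene came to 8.572% and 8.402% of gene reads in the siRNA 7 libraries (mean 8.487%), against 8.283% and 7.958% in controls. Reads aligned more than once came to 30.68% and 30.19% with siRNA 7 (mean 30.44%), against 29.86% and 29.88% in controls. Ambiguous reads came to 1.953% and 1.976% with siRNA 7 (mean 1.965%), against 1.945% and 1.926% in controls. In each of the 3 classes both siRNA 7 libraries lay above both controls, and the differences were not tested. With siRNA 6, reads without a gene came to 8.333% and 8.177%, reads aligned more than once to 29.8% and 29.6% and ambiguous reads to 1.905% and 1.922%. Ambiguous reads with TMEM259 siRNA 6 came to 1.975% and 1.962%, so their share was not particular to FIBP siRNA 7.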

How the results depend on the processing

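Between the siRNAs, no named gene changed the sign of its log2 change under any alternative in which it was tested. The balance of higher and lower calls was less stable. Against controls, siRNA 7 called 1954 genes higher and 2055 lower, and with quantile normalization 1977 and 1887. For siRNA 6 these counts were 1269 and 1391, and with quantile normalization 1299 and 1274. With DESeq2 the genes called were 2621 between the siRNAs, 2519 for siRNA 7 against controls and 1541 for siRNA 6 against controls, and the cause was not tested. Leaving out each library in turn gave 3115 to 4105 genes between the siRNAs, 2940 to 4068 for siRNA 7 and 1669 to 2791 for siRNA 6 (1669 without siRNA 6 replicate 1, 1730 without control replicate 1). A group left with 1 library was then assumed to vary like the others. FIBP stayed called, with log2 changes of 0.452 to 0.817 between the siRNAs, -2.72 to -2.37 for siRNA 7 and -3.36 to -3.0 for siRNA 6. An alternative chosen after seeing the data, which dropped genes with a low word in the 3′ UTR, called 2723 genes between the siRNAs (16.4% of 8443 tested higher and 15.9% lower), with fewer genes tested. Across genes, deviations of same-numbered libraries correlated at -0.04, -0.01 and 0.02 between the groups. The fit with the replicate block called 4081, 3897 and 2508 genes in the 3 comparisons. Reads without a gene were more frequent in replicate 1 than in replicate 2 of siRNA 7 (8.57% and 8.40%), siRNA 6 (8.33% and 8.18%) and controls (8.28% and 7.96%). A batch shared by replicate number was not tested. Of 2130 values of the 153 named genes other than FIBP, 2071 kept direction and call and 59 lost the call, 16 of them with DESeq2. The 594 genes with both siRNAs on 1 side of the controls and siRNA 7 farther were 358 to 393 without siRNA 6 replicate 1, siRNA 6 replicate 2 or siRNA 7 replicate 2. With 2 libraries a group and 8966609 reads in the shallowest, small changes of low genes were not detectable.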
